A study of Mus musculus with 6 samples.

Results

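The genes described here are 45 members of the cell cycle program, taken from the deposited count table of 52323 genes by their symbol and sorted by the phase in which they chiefly act. The members were 10 genes of G1 and of the entry into S phase, 14 genes of DNA replication (S) and 21 genes of G2 and mitosis (G2/M). All 45 were found in the table and all 45 passed the filter on low counts, so each was among the 19135 genes tested.

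The RNA came from cells that the study names damaged hepatocytes (dHeps), perfused out of livers with chronic injury by carbon tetrachloride (CCl4). The mice had the genotype AAV-TBG-Cre:Rosa-LSL-tdTomato on a C57BL/6 background, in which the hepatocyte promoter TBG drives Cre from a viral vector and thereby a lasting red label in hepatocytes. All 3 groups carried the label and the injury and were kept for 16 days in serum-free Hepatocyte Maintenance Medium (Lonza). The DMSO group received solvent only. The 3C group received CID755673 (a protein kinase D inhibitor, 50 µM), GSK429286A (a ROCK inhibitor, 2 µM) and ETC-1002 (named by the study as an AMPK activator, 5 µM), and the 5C group received the same 3 compounds with salidroside (5 µM) and forskolin (an activator of adenylate cyclase, 2 µM). Each group had 2 libraries. The study's methods describe replicates as biological and the mice as young adults at labelling, but neither they nor the labels say whether the libraries of a group came from separate animals or cultures, so the p-values measure only the spread between these libraries, which may be technical. The question put to these genes was whether transcripts of each phase differed between solvent and the cocktails, and between the cocktails.

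In G1, D-type cyclins bind the kinases CDK4 and CDK6 and phosphorylate the retinoblastoma protein, which frees E2F transcription factors. E2F proteins turn on the genes of DNA replication, among them those of the MCM helicase and of nucleotide synthesis. In G2 and mitosis the transcription factors MYBL2 and FOXM1 act on genes for cyclin B, CDK1, the spindle and the mitotic kinases. Adult hepatocytes are mostly quiescent, and after loss of liver tissue they can re-enter this cycle.

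The 6 libraries held 65916573 to 69245895 counts, a ratio of 1.05 between the deepest and the shallowest, and 0.94 to 1.29% of counts were mitochondrial. The hepatocyte identity of the cells was checked with 11 markers, whose summed CPM (counts scaled to a common library total) came to 2490 and 2090 in DMSO, 11100 and 11600 in 3C and 10900 and 15800 in 5C. Summed levels of 16 macrophage markers ran the other way, at 13700 and 14700 CPM in DMSO, 4860 and 4870 in 3C and 3290 and 3240 in 5C. In DMSO the macrophage sums were above those of the 11 hepatocyte markers, and in 3C and 5C they were below. Of the 16, 14 were called lower and 1 (Cd14) higher in each cocktail than in DMSO. None of the 16 was at 0 in every library. Endothelial markers summed to 353 and 376 CPM in DMSO, of which Lyve1 made up 309 and 319, and to 98.5 to 251 in the cocktails. Of the 9 tested, 6 passed upward and 2 downward in 5C against DMSO, and 4 higher and 2 lower in 3C. Mesothelial markers summed to 1090 and 913 CPM in DMSO, 1310 and 1220 in 3C and 2110 and 2060 in 5C, with 6 of 6 called higher in 5C and 2 of 6 in 3C. Of 8 cholangiocyte markers, 7 were called higher and 1 (Spp1, most of their sum) lower in 5C, and 6 higher in 3C. Stellate and fibroblast markers summed to 9370 and 8050 CPM in DMSO, 7130 and 7240 in 3C and 11700 and 12600 in 5C, with 6 of 12 called higher and 2 lower in 5C and 5 higher and 4 lower in 3C. Of the 8 T and B cell markers, 4 were at 0 in every library. In such bulk RNA, fewer cells of a type and less RNA per cell cannot be told apart, and the part of these shifts in the values below was not tested.

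Levels differed widely between the phases. They are given here as FPKM, the authors' values scaled for gene length and library size, as the median over the 6 libraries. Cdk4 stood highest at 102 FPKM, and the D-type cyclins stood at 59.1 (Ccnd1), 41.2 (Ccnd3) and 30.1 (Ccnd2). The S phase members had a median of 5.00 FPKM and reached 30.3 FPKM for Pcna, the sliding clamp of DNA polymerase. The G2/M members had a median of 1.33 FPKM, none was above the 2.71 FPKM of Top2a, and 7 of the 21 were below 1 FPKM. The lowest members were E2f7 at 0.190 FPKM, Cenpf at 0.214 and Cdc25c at 0.249.

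**Figure D1:**
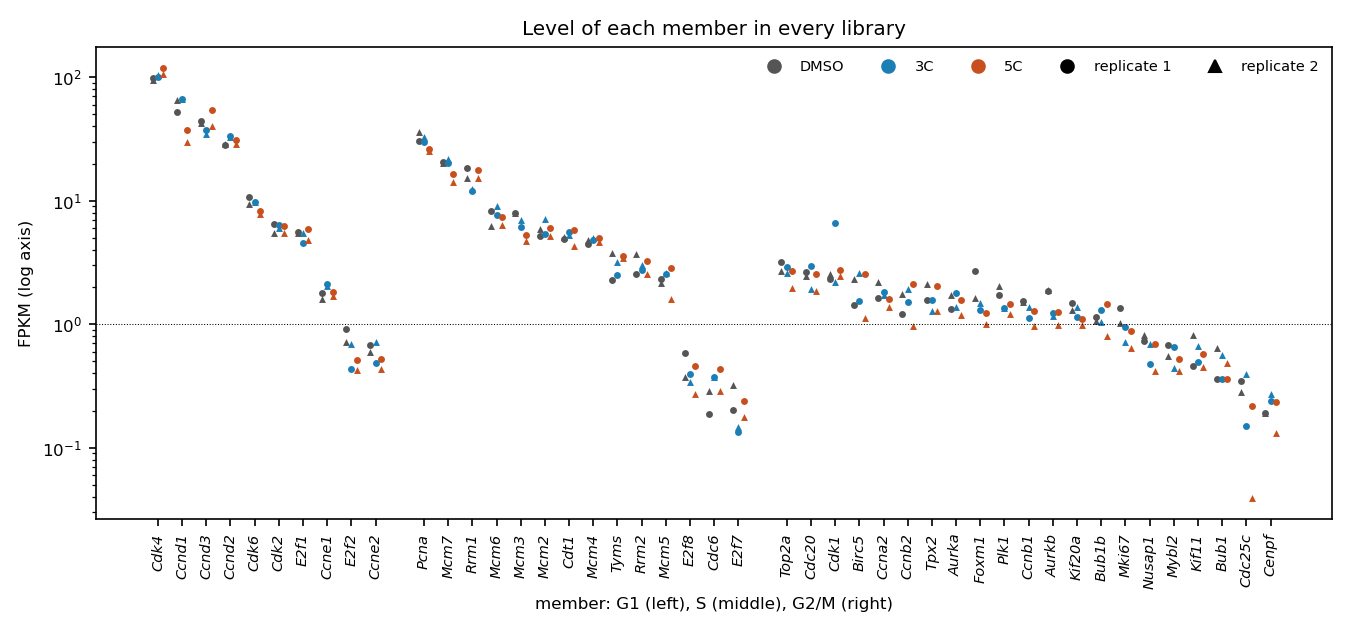
FPKM of each member (log axis) in every library, with members ordered by their median within G1, S and G2/M. Colours mark the groups, circles replicate 1 and triangles replicate 2, and the dotted line marks 1 FPKM. Cdk4 lies near 102 FPKM, and all G2/M members have medians at or below 2.71 FPKM.

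Few members passed the test, and the changes of those that passed were small. In 5C against DMSO 6 of the 45 members passed the edgeR quasi-likelihood test at a Benjamini-Hochberg adjusted p under 0.05 (called), 1 higher and 5 lower, where the call was met by 28.7% of all genes tested, 15.6% upward and 13.1% downward. In 3C against DMSO 1 of 45 was called, lower, beside 24.5% of all genes, 12.7% higher and 11.8% lower. In 5C against 3C 4 of 45 were called, 1 higher and 3 lower, beside 12.7% of all genes, 7.33% higher and 5.33% lower. The called members were Ccnd1, Cdk4 and Cdk6 of G1 and Mcm3, Mcm7, Pcna and Rrm1 of S. Their log2 fold changes stayed between -0.96 and 0.48, so none exceeded 1 in size, which 11.7% of all genes tested did together with the call in 5C against DMSO, 9.45% in 3C against DMSO and 3.01% in 5C against 3C. The median log2 fold change of all 45 members was -0.15, -0.03 and -0.11 in the 3 comparisons, and that of all genes tested was 0.004, 0.009 and -0.011.

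**Figure D2:**
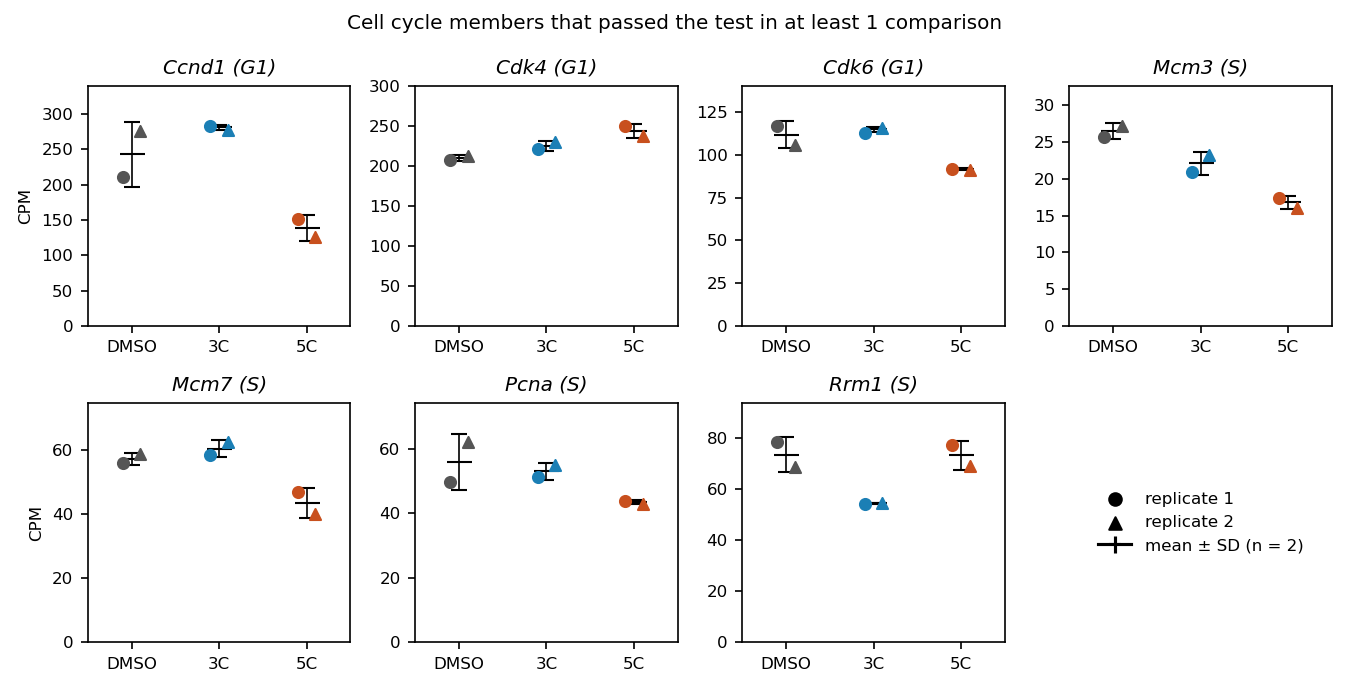
CPM of the 7 called members in each library (circle, replicate 1; triangle, replicate 2) with the mean and SD of each group (n = 2), on axes that start at 0. Ccnd1, Cdk6, Mcm3, Mcm7 and Pcna are lowest in both 5C libraries, and Rrm1 is lowest in both 3C libraries.

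Ccnd1, which encodes cyclin D1 and lies on chr7:144483668-144493662 (GRCm39, minus strand), showed the largest change among the called members. It stood at 211 and 276 CPM in DMSO, 283 and 278 in 3C and 152 and 126 in 5C. Both 5C libraries were below every other library, while the higher DMSO library nearly reached those of 3C. The group means were 243 ± 45.7 CPM (SD, n = 2) for DMSO, 281 ± 3.91 for 3C and 139 ± 18.5 for 5C. In 5C the log2 fold change was -0.79 against DMSO (SE 0.14, edgeR adjusted p 0.00374) and -0.96 against 3C (SE 0.14, edgeR adjusted p 0.00411), and in 3C against DMSO it was 0.17 (SE 0.14, adjusted p 0.444). Without DMSO replicate 2 the last value was 0.40 and passed the test (adjusted p 0.0264). Exons of LTO1 on the other strand cover 48.4% of the annotated exonic bases of Ccnd1, and the strand setting of the counting is not given in the sources used here. LTO1 itself stood at 14.9 and 15 CPM in DMSO, 17.6 and 17.1 in 3C and 15.5 and 16.8 in 5C, and its change in 5C against DMSO was 0.13 (adjusted p 0.459).

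The other D-type cyclins did not follow Ccnd1. Ccnd2 (cyclin D2) was measured at 193 and 204 CPM in DMSO, 235 and 229 in 3C and 212 and 205 in 5C, with its highest libraries in 3C. Its log2 fold change was 0.19 in 3C against DMSO (SE 0.07, edgeR adjusted p 0.0739) and 0.09 in 5C against DMSO (95% interval -0.06 to 0.25). In 3C against DMSO Ccnd2 missed the threshold in the main fit but passed under some other settings. Ccnd3 (cyclin D3) had its lowest libraries in 3C, at 75.9 and 68.8 CPM, beside 81.5 and 78.6 in DMSO and 92.9 and 78.3 in 5C. The difference of 0.29 between 5C and 3C missed the threshold (SE 0.09, edgeR adjusted p 0.0647), and it passed with DESeq2 (adjusted p 0.0374).

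The partner kinases moved in opposite directions. Cdk4 (chr10:126895180-126903789, plus strand) was measured at 207 and 213 CPM in DMSO, 221 and 230 in 3C and 250 and 238 in 5C. The 3 groups did not overlap, in the order DMSO, 3C, 5C. In 5C against DMSO it rose by a log2 fold change of 0.23 (SE 0.07, edgeR adjusted p 0.0289), and the neighbouring steps did not pass, at 0.07 in 3C against DMSO (adjusted p 0.544) and 0.17 in 5C against 3C (adjusted p 0.163). Exons of Tspan31 on the opposite strand cover 18.8% of the exonic bases of Cdk4, and Tspan31 also rose in 5C, from 105 and 110 CPM in DMSO to 130 and 136 (log2 fold change 0.33, edgeR adjusted p 0.00611). Its part in the Cdk4 value was not tested. The Cdk4 call was kept under 8 of 17 other settings, with adjusted p-values from 0.00403 to 0.147, and was lost when any library but DMSO replicate 2 was left out.

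Cdk6 (chr5:3391485-3581008, plus strand) was measured at 117 and 106 CPM in DMSO, 113 and 116 in 3C and 92.1 and 91.2 in 5C. Both 5C libraries were the lowest, and DMSO and 3C overlapped. It fell in 5C, with a log2 fold change of -0.27 both against DMSO (SE 0.07, edgeR adjusted p 0.0168) and against 3C (SE 0.07, edgeR adjusted p 0.0300), and was level between 3C and DMSO (0.01, 95% interval -0.15 to 0.16). The call was kept under 11 of 17 settings against DMSO (adjusted p 0.00654 to 0.121) and 10 of 17 against 3C (0.00762 to 0.262). It was lost against DMSO without DMSO replicate 1 or either 5C library, and against 3C without any 1 of the 4 libraries of these groups.

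The later acting G1 members were lower in level and none passed in the main fit. Ccne1 and Ccne2 (the E-type cyclins) ranged from 1.39 to 4.67 CPM, and their kinase Cdk2 from 14.9 to 18.0. E2f1 had log2 fold changes from -0.17 to 0.15. E2f2 was highest in the DMSO libraries, at 4.66 and 3.84 CPM, beside 2.31 and 2.84 in 3C and 2.68 and 2.28 in 5C. Against DMSO the log2 fold changes missed the threshold, at -0.76 for 5C (SE 0.26, edgeR adjusted p 0.0553) and -0.75 for 3C (SE 0.26, edgeR adjusted p 0.0643). Apart from leaving out a library, 11 other settings were run, and E2f2 passed in 5C against DMSO under 2 of them. In 3C against DMSO E2f2 and Ccnd2 each passed under such settings, 3 times between them. Of the 10 G1 members, 3 were called between 5C and DMSO, 0 between 3C and DMSO and 2 between 5C and 3C. The shares of all genes tested were 28.7%, 24.5% and 12.7%, and the median log2 fold changes of the G1 members were 0.00, 0.04 and -0.07 in that order. For 3C against DMSO, where edgeR called 0, 2 of 10 had an unadjusted p under 0.05 and DESeq2 called 1.

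**Figure D3:**
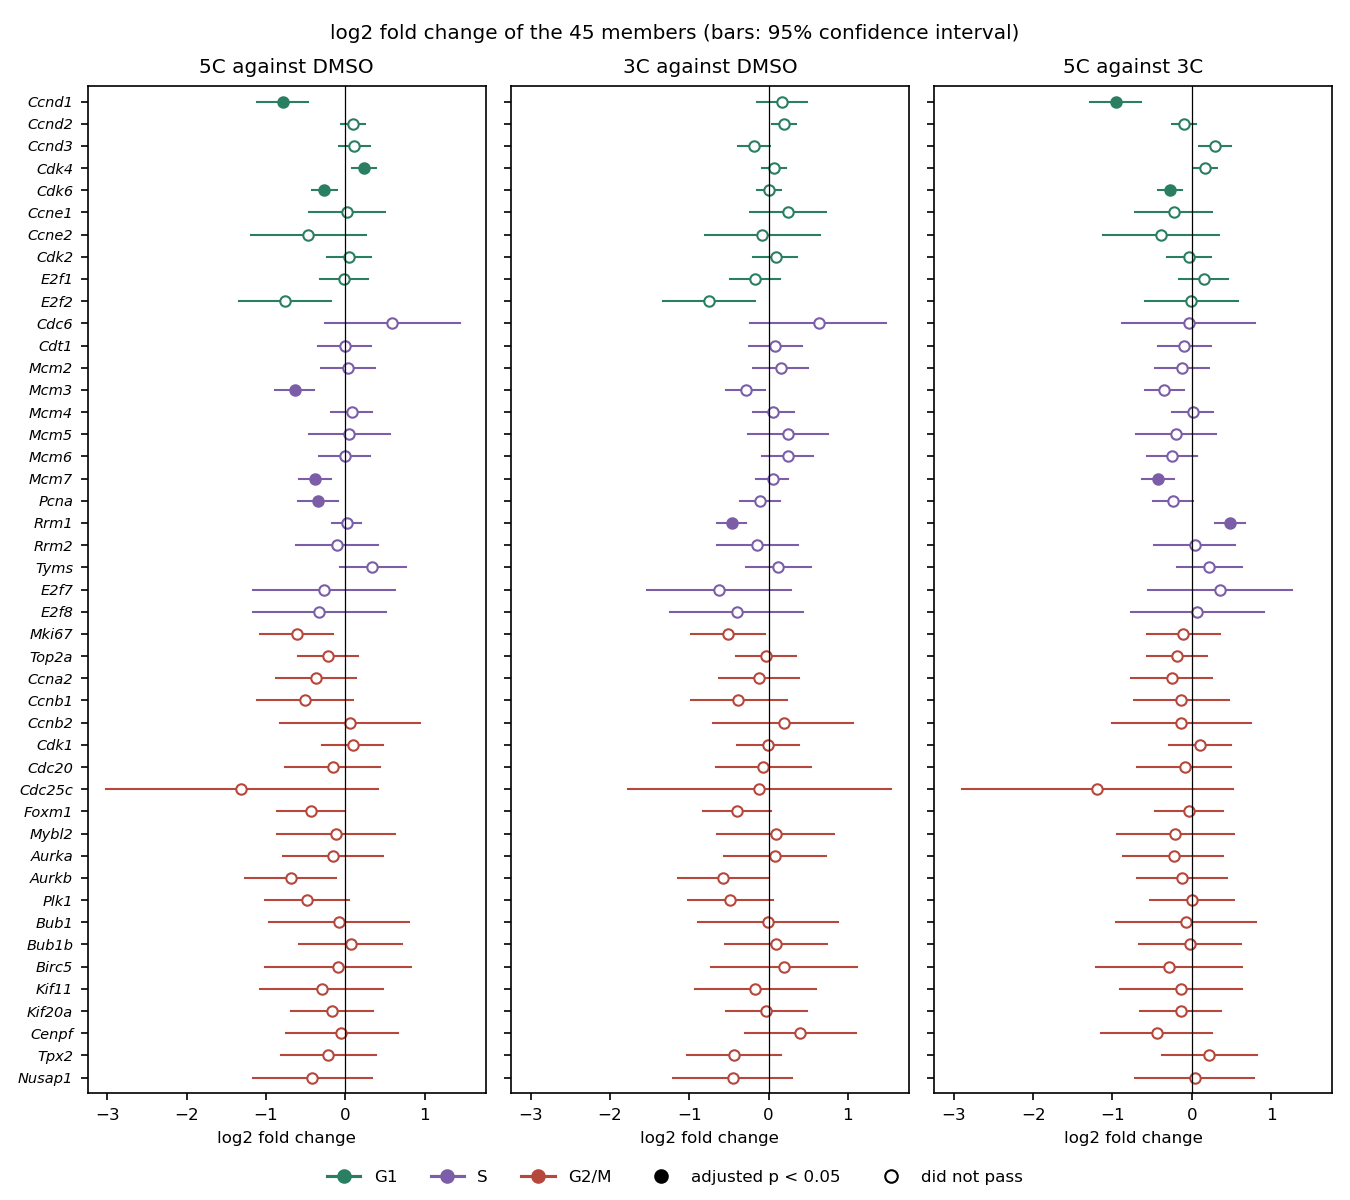
The log2 fold change of each member from edgeR (points) with its 95% confidence interval (bars) in the 3 comparisons, coloured by phase. Filled points passed an adjusted p under 0.05. Intervals widen from G1 (median half-width 0.29 in 5C against DMSO) to G2/M (0.60), and no G2/M point is filled.

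Among the S phase members, 2 of the 6 subunits of the MCM helicase, which unwinds DNA at replication origins, were called. Mcm3 (chr1:20870791-20890536, minus strand) was measured at 25.7 and 27.2 CPM in DMSO, 21 and 23.2 in 3C and 17.4 and 16.1 in 5C. The groups did not overlap, with 3C between DMSO and 5C. Mcm3 fell in 5C against DMSO by a log2 fold change of -0.64 (SE 0.11, edgeR adjusted p 0.00204), a call kept under 17 of 17 settings. The steps on either side of 3C missed the threshold, at -0.29 in 3C against DMSO (adjusted p 0.0838) and -0.35 in 5C against 3C (adjusted p 0.0745).

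Mcm7 (chr5:138162844-138170684, minus strand) was measured at 56.1 and 58.8 CPM in DMSO, 58.7 and 62.5 in 3C and 46.9 and 40.2 in 5C. Only the 5C libraries stood apart, below the others. It fell in 5C by -0.38 against DMSO (SE 0.09, edgeR adjusted p 0.0116) and by -0.43 against 3C (SE 0.09, edgeR adjusted p 0.0146), and the calls were kept under 14 and 13 of 17 settings. The first was lost without DMSO replicate 2 or 5C replicate 2 (adjusted p 0.00244 to 0.0769 over the settings), and the second without either 3C library or 5C replicate 2 (0.000884 to 0.126). Of the 50-base words of its longest transcript, 26.0% also occur in Gm5487, whose counts were 2 to 11 per library. The other 4 subunits did not pass in any comparison. Mcm2, Mcm4, Mcm5 and Mcm6 had log2 fold changes between -0.01 and 0.08 in 5C against DMSO, 0.06 and 0.25 in 3C against DMSO and -0.25 and 0.01 in 5C against 3C.

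Promoters were examined because E2F words are known from genes of S phase, and the CHR element and CCAAT boxes from genes of G2 and mitosis. RefSeq windows (GRCm38.p6) of 250 bases before and 50 after the start were given for 35 of the 45 members, and the 10 without a window were Ccnd1, Ccnd2, Ccne2, Mcm4, Ccna2, Cdc25c, Foxm1, Aurkb, Kif20a and Tpx2. Both strands were searched. An E2F word was TTTCCCGC, TTTCGCGC, TTTGCCGC or TTTGGCGC. A CHR word was TTTGAA or the self-complementary form whose 6 letters open the Mcm7 sequence printed with this motif. A CCAAT box was the word of that name, and in Mcm7 a second E2F word and a CCAAT box share 1 base. A member was counted as holding a word if any of its windows did, while the shares of all were counted per window, so the units differ. An E2F word was held by 7 of 13 S phase members with a window, 2 of 7 in G1 and 1 of 15 in G2/M, beside 2.26% of all 32851 windows. A CHR word was held by 11 of 15 G2/M members, 3 of 13 in S and 1 of 7 in G1, beside 19.2% of all windows. CCAAT was held by 12 of 15, 10 of 13 and 3 of 7, beside 37.4%. Of the 6 called members with a window, 2 held an E2F word and 1 a CHR word, beside 8 and 14 of the 29 that were not called.

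Those 2 were Mcm3 and Mcm7, and their matches are shown because both genes fell in 5C against DMSO. Positions count from 1 at the RefSeq start on which the window is set, which for Mcm7 lies inside the GENCODE span of the gene given above, capitals mark the words, and each window matched its gene's chromosome in GRCm39 once and exactly. In Mcm3 the 2 E2F words lie in an exon of Mcm3, in the UTR, at chr1:20890491-20890517 (minus strand, bases 20 to 46), and 3 CCAAT boxes lie upstream, outside any annotated exon, at chr1:20890564-20890653 (bases -117 to -28). In Mcm7 a CHR word and an E2F word lie side by side at chr5:138170303-138170318 (minus strand, bases -173 to -158), where UTR exons of Mcm7 and of Ap4m1 on the other strand are annotated.
Mcm3 E2F words: GCGGGAAAacttgggaagtTTTGGCGC
Mcm3 CCAAT boxes: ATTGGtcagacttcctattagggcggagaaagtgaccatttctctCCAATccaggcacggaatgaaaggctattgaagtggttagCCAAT
Mcm7 CHR and E2F words: TTCGAAccGCGGGAAA
Mcm5 and Mcm6, which did not pass in any comparison, also hold E2F words in their windows.

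Pcna (chr2:132091082-132095234, minus strand) was measured at 49.7 and 61.9 CPM in DMSO, 51.2 and 54.9 in 3C and 43.8 and 42.9 in 5C. The 5C libraries were lowest, and the spread within DMSO was wider than that between DMSO and 3C. The log2 fold change in 5C against DMSO was -0.34 (SE 0.11, edgeR adjusted p 0.0458). This call sat close to the threshold and was kept under 10 of 17 settings (adjusted p 0.00402 to 0.247), being lost when any library but DMSO replicate 1 was left out. The processed copy Pcna-ps2 holds 31.8% of the 50-base words of Pcna and was counted at 4.6 to 8.34 CPM, with its lowest libraries also in 5C.

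Rrm1, the large subunit of ribonucleotide reductase, was the single member called in 3C against DMSO. It lies on chr7:102090890-102119709 (plus strand) and was measured at 78.1 and 68.5 CPM in DMSO, 54.0 and 54.5 in 3C and 77.1 and 69.1 in 5C. The 3C libraries were the lowest, and DMSO and 5C covered nearly the same range. It fell in 3C by -0.46 against DMSO (SE 0.08, edgeR adjusted p 0.00319), was higher by 0.48 in 5C against 3C (SE 0.08, edgeR adjusted p 0.00599) and differed by 0.02 between 5C and DMSO (95% interval -0.17 to 0.20). The calls were kept under 16 and 12 of 17 settings, and the second was lost without either 3C library (adjusted p 4.37e-05 to 0.178 over the settings). The second call was also lost by limma on FPKM under each of its settings, and the first by limma with no filter. Rrm2, the small subunit of the same enzyme, did not share the Rrm1 pattern. It was measured at 6.06 and 9.10 CPM in DMSO, 6.82 and 7.27 in 3C and 7.67 and 6.30 in 5C, with its highest and lowest libraries both in DMSO. Exons of Gm59512 on the opposite strand cover 43.3% of the exonic bases of Rrm2, and their part in its values was not tested.

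The remaining S phase members did not pass in any comparison. Tyms (thymidylate synthase) had both 5C libraries above both DMSO libraries (log2 fold change 0.34, SE 0.18, edgeR adjusted p 0.208). The licensing factors Cdt1 and Cdc6 ranged from 10.7 to 14.1 and from 0.908 to 2.16 CPM, and the repressive E2F factors E2f7 and E2f8 from 0.821 to 2.25 CPM. Of the 14 S phase members, 3, 1 and 2 were called in the 3 comparisons, beside 28.7%, 24.5% and 12.7% of all genes tested. Their median log2 fold changes were -0.01, 0.05 and -0.07.

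In the main fit, to which the edgeR counts here refer, no G2/M member passed the test. In 5C against DMSO 0 of 21 were called, 3 had an unadjusted p under 0.05, and DESeq2 called 1 (Mki67). In 3C against DMSO edgeR and DESeq2 called 0, with 1 unadjusted p under 0.05, and in 5C against 3C both called 0, with 0 such p-values. Genes whose mean level lay in the same range as these members, 0.551 to 13.6 CPM, were called at 25.6%, 21% and 9.32% in the 3 comparisons. The median log2 fold change of the 21 members was -0.22 in 5C against DMSO, -0.07 in 3C against DMSO and -0.13 in 5C against 3C, with 18, 15 and 17 fitted values below 0. The intervals of 13 of 21 members lay within a log2 fold change of 1 to either side in 5C against DMSO, and those of 13 and 17 in the other comparisons, while for the rest a 2-fold change lay within the interval.

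The levels in single libraries show how far these values scattered. Top2a, the topoisomerase that untangles chromosomes, was measured at 15 and 13.8 CPM in DMSO, 14.8 and 13.8 in 3C and 14.3 and 10.1 in 5C. Cdk1, the kinase that starts mitosis, was measured at 9.26 and 10.6 CPM in DMSO, 10.8 and 9.41 in 3C and 11.7 and 9.16 in 5C. For both genes the groups overlapped, and the log2 fold changes in 5C against DMSO were -0.22 (95% interval -0.60 to 0.16) and 0.09 (-0.30 to 0.48).

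Mki67, the gene of the proliferation marker Ki67, was measured at 14.6 and 11.6 CPM in DMSO, 10.9 and 7.97 in 3C and 9.64 and 7.29 in 5C. Both DMSO libraries were above the 4 others, by a small margin. The log2 fold change was -0.61 in 5C against DMSO (SE 0.21, edgeR adjusted p 0.0537), -0.51 in 3C against DMSO (SE 0.21, adjusted p 0.113) and -0.11 in 5C against 3C (adjusted p 0.832). It passed in 5C against DMSO with DESeq2 (-0.61, adjusted p 0.0348). In edgeR it also passed there with a replicate block, with counts divided by 4 and with at least 10 counts required in every library. With the replicate block it passed in 3C against DMSO too. Without 5C replicate 2 the log2 fold change of Mki67 in 5C against DMSO was -0.44. Aurkb, the kinase of the chromosomal passenger complex, had a similar order, at 3.44 and 3.81 CPM in DMSO, 2.64 and 2.36 in 3C and 2.32 and 2.12 in 5C (-0.69 in 5C against DMSO, SE 0.25, edgeR adjusted p 0.0725).

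Of the G2/M members, 8 had both 5C libraries below both DMSO libraries and 0 had both above. The 8 were Mki67, Ccna2, Ccnb1, Cdc25c, Foxm1, Aurkb, Plk1 and Nusap1. Over all genes tested, 32.2% stood lower without overlap in this way and 30.9% higher, so the 8 of 21 can be read beside the first share. In 3C against DMSO 6 were lower and 1 (Cenpf) higher, beside 27.7% and 33.6% of all genes, and in 5C against 3C 4 were lower and 0 higher, beside 34.8% and 23.2%. Cdc25c, a phosphatase that activates CDK1, had the largest fitted change of any member, -1.31 between 5C and DMSO (SE 0.76, edgeR adjusted p 0.249), on counts of 48 and 46 in DMSO and 31 and 8 in 5C.

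The second 5C library was lower than the first over most members. It was the lowest of the 6 libraries for 27 of the 45 members, among them 16 of the 21 of G2/M, and the highest for 0. Of the members, 9 of 10 in G1, 14 of 14 in S and 19 of 21 in G2/M were lower in 5C replicate 2 than in 5C replicate 1, with median differences of -0.16, -0.15 and -0.37 in log2 CPM. Its summed G2/M level was 74.5 CPM, beside 99.8 in 5C replicate 1, 99.6 and 92.7 in 3C and 102 and 109 in DMSO. In depth the pair was nearly equal, at 69245895 counts in 5C replicate 2 and 69068421 in 5C replicate 1. The second library had the higher sum of hepatocyte markers of the pair (15800 against 10900 CPM), while the macrophage sums were alike. The median log2 fold change of the G2/M members in 5C against 3C was 0.06 without this library and -0.30 without 5C replicate 1, and in 5C against DMSO it was -0.15 and -0.48.

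**Figure D4:**
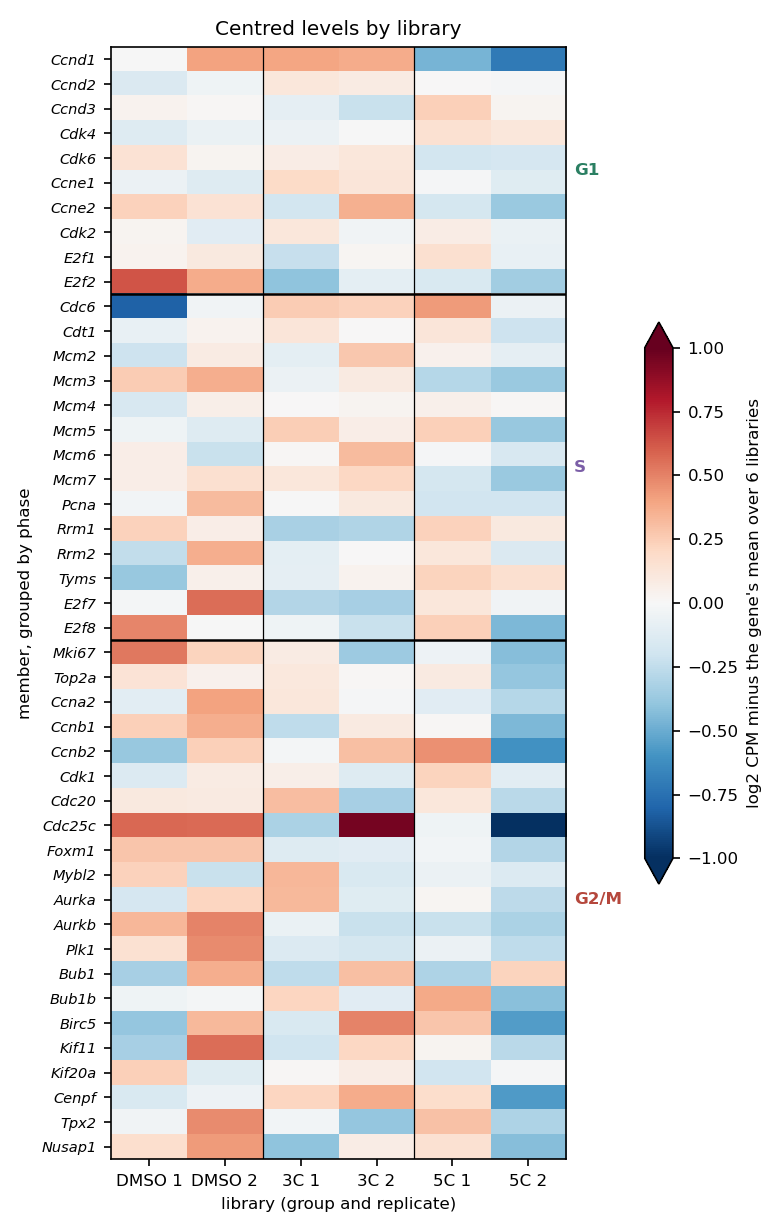
Log2 CPM of each member minus its mean over the 6 libraries (colour, which saturates at -1 and 1), with members grouped by phase and libraries by group and replicate. The 5C replicate 2 column is the lowest for 27 of the 45 members, and Ccnd1 is low in both 5C columns.

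The median centred level per library gives the same picture by phase. For G2/M it was 0.10 and 0.28 in DMSO, -0.02 and -0.01 in 3C and 0.02 and -0.31 in 5C, on the log2 scale. For S phase it was -0.03 and 0.06 in DMSO, -0.03 and 0.05 in 3C and 0.11 and -0.15 in 5C. G1 stayed between -0.10 and 0.05. The pooled SD between replicates was 0.04 for G1, 0.12 for S and 0.15 for G2/M.

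Other genes of the cycle, from lists of general knowledge, were counted beside the members. Of 13 other G1 genes, 1 passed upward and 3 downward in 5C against DMSO, 1 downward in 3C against DMSO and 0 in 5C against 3C, where 3 had an unadjusted p under 0.05 and DESeq2 called 1. Skp2, an F-box protein that marks the CDK inhibitor p27 for degradation, was measured at 14.7 and 8.63 CPM in DMSO, 5.77 and 5.94 in 3C and 4.47 and 6.15 in 5C. It fell by -1.11 in 5C (SE 0.27, edgeR adjusted p 0.0127) and by -1.02 in 3C (SE 0.26, edgeR adjusted p 0.0210). Rb1, the retinoblastoma gene, fell in 5C against DMSO by -0.69 (SE 0.13, edgeR adjusted p 0.00433). The other calls in 5C against DMSO were Ccnh, higher by 0.39, and Rbl2, lower by -0.25 (edgeR adjusted p 0.0198 and 0.0357).

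Of 34 other S phase genes, 3 were called higher and 2 lower in 5C against DMSO, 2 and 1 in 3C against DMSO and 1 and 1 in 5C against 3C. Dut (dUTPase) was measured at 24.5 and 24.3 CPM in DMSO, 27.7 and 29.3 in 3C and 45.7 and 45.6 in 5C, and it was higher in 5C by 0.92 against DMSO (edgeR adjusted p 5.83e-05) and by 0.73 against 3C (edgeR adjusted p 0.00118). Lig1 (DNA ligase 1) was highest in 3C, at 23.7 and 20.6 CPM beside 14.4 and 15.5 in DMSO and 15 and 12.9 in 5C, and passed in 3C against DMSO (0.53, edgeR adjusted p 0.0150) and in 5C against 3C (-0.62, edgeR adjusted p 0.0140). Other calls were Orc6 (higher), Fen1 and Dnmt1 (lower) in 5C and Dbf4 (lower) in 3C, each against DMSO.

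Of 35 other G2/M genes, 0 were called higher and 7 lower in 5C against DMSO, 0 and 4 in 3C against DMSO and 0 and 1 in 5C against 3C, where 13.1%, 11.8% and 5.33% of all genes tested were lower and 15.6%, 12.7% and 7.33% higher. The median log2 fold changes were -0.38, -0.13 and -0.22. These shares of all genes stand beside the counts of the other lists too. Espl1 (separase, which cuts the cohesin ring) was measured at 10.3 and 10.4 CPM in DMSO, 5.01 and 6.86 in 3C and 3.94 and 3.34 in 5C. It fell by -1.49 in 5C (SE 0.21, edgeR adjusted p 0.000657) and -0.84 in 3C (SE 0.21, edgeR adjusted p 0.0164). Cdc25b, a phosphatase that activates CDK1, fell by -1.01 in 5C against DMSO (SE 0.21, edgeR adjusted p 0.00575). Cenpe, a kinetochore motor, fell by -0.96 in 5C and -0.76 in 3C (edgeR adjusted p 0.0126 and 0.0405). Ect2, a cytokinesis factor, was the gene called in 5C against 3C (-0.71, SE 0.18, edgeR adjusted p 0.0347). Incenp and Anln made up the 4 calls in 3C with Espl1 and Cenpe.

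Inhibitors of the cyclin-dependent kinases changed in both directions. Of 7, 1 was called higher and 3 lower in 5C against DMSO, 1 and 3 in 3C against DMSO and 1 and 0 in 5C against 3C. Cdkn2d (p19 of the INK4 family) was measured at 18.7 and 16.9 CPM in DMSO, 9.07 and 10.7 in 3C and 9.85 and 8.97 in 5C, and fell by -0.90 in 5C (SE 0.14, edgeR adjusted p 0.00126) and -0.88 in 3C (SE 0.14, edgeR adjusted p 0.00175). Cdkn1c (p57) was measured at 17.6 and 14.1 CPM in DMSO, 24.7 and 25.7 in 3C and 25.5 and 28.9 in 5C, and rose by 0.80 in 5C (edgeR adjusted p 0.00153) and 0.64 in 3C (edgeR adjusted p 0.00621). Cdkn2a (p16 and ARF) was the one called between the cocktails, at 9.41 and 8.75 CPM in 3C and 14.1 and 14.9 in 5C (log2 fold change 0.73, SE 0.17, edgeR adjusted p 0.0244). The other calls, all lower than in DMSO, were Cdkn1a (p21) in 5C, Cdkn2c in 3C and Cdkn2b in both.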

How the data were processed

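RNA of 6 libraries (3 groups of 2) was sequenced on a NovaSeq instrument after preparation with the NEBNext Ultra RNA kit, and the authors mapped the reads to GRCm39. The submitters' processing notes name featureCounts, Subread and DESeq2 without roles or versions. The deposited count table holds estimated counts per gene, whole numbers that were not normalized, with an excess of the value 4 (4816 entries, beside 3121 of 3 and 2303 of 5), so a count may not be 1 fragment. The deposited FPKM table, scaled by the authors for gene length and library size, served for levels between genes and for alternatives.

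Members and gene lists were chosen with earlier results of these data known. All values of a member's test came from edgeR 4.0.16 in R 4.3.3 (TMM, filterByExpr, robust quasi-likelihood F test) on all 6 libraries and 19135 genes, with 3 residual degrees of freedom and a common biological coefficient of variation of 18.4%. The scripts were tested on simulated data. CPM were counts over the library total. The SE is that implied by the F statistic, and intervals are at 95%. All members could be named, with values in every library for those called and for the 3 of highest mean CPM in each phase. For other lists up to 2 called genes of largest change were named per comparison. E2f2, Ccnd3, Rrm2, Tyms, Aurkb and Cdc25c, and list genes named to complete a count, were chosen after their values were seen. A gene of the other S phase genes is counted in its list but not reported here. Alternatives were RLE and upper quartile scaling, filters on low counts, DESeq2 1.42.0 and limma 3.58.1 on log2(FPKM + 1) and log2(FPKM + 0.1). Others were counts divided by 4, a replicate block, a fit of only the 4 libraries compared, fold limits and leaving out each library. Shared 50-base words and exon overlaps came from the GENCODE annotation of GRCm39. The depth of 65916573 to 69245895 counts per library was alike between groups.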

Additional observations from a re-analysis of the deposited data

How the results depend on the processing

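Counts of called members depended on the setting, and they rose as well as fell. With counts divided by 4, or with at least 10 counts in every library, the calls in 5C against DMSO rose. They then numbered 4 in G1 and 1 in G2/M, beside 3 and 0 in the main fit, with S unchanged at 3. In 5C against 3C the G1 calls rose from 2 to 3 under either setting and with DESeq2. In 5C against DMSO the 6 calls became 2 by limma on log2(FPKM + 1) with no filter, 2 with an absolute log2 fold change above 0.5 and 0 above 1, and ranged from 2 to 5 when each library was left out. In 3C against DMSO the 1 call became 2 with upper quartile scaling, DESeq2, the replicate block or counts divided by 4, 0 by limma on log2(FPKM + 1) with no filter and 0 above either fold limit, and ranged from 1 to 3 (3 without DMSO replicate 2). In 5C against 3C the 4 calls became 2 by limma on log2(FPKM + 1) and on log2(FPKM + 0.1), 0 with no filter, 1 above 0.5 and 0 above 1, and ranged from 1 to 4 (1 without either 3C library). With only the 4 libraries compared in the fit, the Cdk4 and Pcna calls in 5C against DMSO were lost. On FPKM, every limma setting lost the calls of Cdk4 in 5C against DMSO, Cdk6 in both its comparisons and Rrm1 in 5C against 3C. The cause of these shifts was not tested. With libraries left out in turn, the phase medians for G1, S and G2/M ranged from -0.08 to 0.08, from -0.21 to 0.07 and from -0.48 to -0.15 in 5C against DMSO, from -0.01 to 0.06, from -0.06 to 0.13 and from -0.17 to -0.06 in 3C against DMSO, and from -0.12 to -0.04, from -0.26 to 0.06 and from -0.30 to 0.06 in 5C against 3C. The G1 median in 5C against 3C was -0.16 on log2(FPKM + 0.1), and on log2(FPKM + 1) the centred level was 0.08 for G1 in DMSO replicate 1 and 0.11 for G2/M in DMSO replicate 2. Called log2 fold changes kept their sign under every setting run.

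Same-numbered libraries did not deviate together (r of -0.031, 0.00068 and 0.016 for the 3 pairs of groups), so the number was not taken as a pairing. With the replicate block 7, 2 and 5 members were called in the 3 comparisons. Leaving out a library leaves 1 in its group, which is then assumed to vary like the others. The 2 libraries per group and the low counts in G2/M are limits of these results.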

Other observations

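The FPKM and the counts of a member mostly gave the same pattern over libraries. The ratio of FPKM to CPM in a library was compared with its median in the gene's other 5 libraries, and of 270 such values 2 differed by more than 1.5 times. For Cdk1 in 3C replicate 1 the ratio was 2.55 times that of the other libraries (6.58 FPKM beside 2.19 in 3C replicate 2, on 10.8 and 9.41 CPM). For Foxm1 in DMSO replicate 1 it was 1.64 times (2.72 FPKM beside 1.63 in DMSO replicate 2, on 6.98 and 6.86 CPM).

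Exons of another gene on the opposite strand touched 24 of the 45 members and covered at least 15% of the exonic bases of 10. Of Kif20a 54.8% was covered by Cdc23 alone, and Brd8 also overlapped. Cdc23 was counted at 36.2 to 46.4 CPM beside 3.66 to 4.99 for Kif20a. Of Aurka 25.2% was covered by Fam210b alone, and Cstf1 and Gm75386 also overlapped. Fam210b was higher in 5C than in DMSO by a log2 fold change of 0.67 (edgeR adjusted p 0.000649), while Aurka had -0.15 (edgeR adjusted p 0.746). Of the 50-base words of Ccnb1, 38.4% occur in other genes, and 30.7% in Ccnb1-ps, which had 6 to 37 counts per library.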
